A study of Mus musculus with 12 samples.

Results

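Peroxiredoxins and the thioredoxin system were followed in the prostate through 10 genes, the peroxiredoxin genes Prdx1 to Prdx6, the thioredoxin genes Txn1 and Txn2 and the thioredoxin reductase genes Txnrd1 and Txnrd2. They were found by gene symbol among the 39179 Ensembl genes of the deposited table, and all 10 passed the filter on low values. The tissue came from mice aged 4 months, of a hybrid strain of 129/SvImJ and C57Bl/6J, and all of them received paraquat, a herbicide that cycles between oxidised and reduced forms in cells and so generates superoxide. There were 6 libraries from mice null for the gene under study and 6 from wild-type mice, and no library from untreated mice was used here. No label names a promoter or cell type that limits the null allele. The sources used here do not say whether a library holds 1 animal or several.

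Peroxiredoxins are abundant enzymes that destroy hydrogen peroxide and organic peroxides with a reactive cysteine. Most of them are returned to their active form by thioredoxin, a small protein that is in turn reduced by thioredoxin reductase, a selenium-containing enzyme that takes its electrons from NADPH. Prdx1, Prdx2, Txn1 and Txnrd1 act mainly in the cytosol, Prdx3, Txn2 and Txnrd2 form the mitochondrial branch, Prdx4 works in the endoplasmic reticulum and Prdx5 in several compartments including mitochondria. Prdx6 differs from the others in using a single conserved cysteine that is recycled with glutathione, and it has a phospholipase activity as well.

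Values are the authors' normalized log2 values, 1 per gene and library, and each difference is null minus wild type on that scale. Depth estimated from these values was 14.8 to 20.5 M reads in null and 15.3 to 21.7 M reads in wild-type libraries. Within each genotype, libraries 1 to 3 and libraries 4 to 6 formed sets with closely similar profiles (median absolute difference over tested genes 0.0776 to 0.141 within sets and 0.274 to 0.352 between sets of a genotype). Libraries of different genotypes differed by 0.323 to 0.710 on the same measure, a range that overlapped with that between sets. The labels do not tie the libraries of a set to different animals, and a p-value from single libraries may therefore reflect technical spread. Each difference was tested with limma in a library fit, which uses the 12 libraries, and in a set-mean fit, which uses the 4 means of the sets. A gene is called where the adjusted p is under 0.05, and is said to have risen or fallen only where it was called in both fits. Prostate secretory markers were detected in every library but 4 of 5 were called lower in the null in the library fit, with a summed level of 16.62 to 17.36 in null and 20.07 to 20.95 in wild-type libraries (log2). Seminal vesicle markers were called higher for 5 of 5, with a summed level of 21.40 to 21.42 in null libraries 1 to 3, 16.78 to 16.81 in null libraries 4 to 6 and 5.33 to 7.70 in wild-type libraries. Summed levels of other cell type markers were 10.002 to 10.47 in null and 8.29 to 9.28 in wild-type libraries for adipocytes (4 of 4 called higher), and 11.36 to 12.19 in null and 11.06 to 11.31 in wild-type libraries for leukocytes (3 of 6 higher). They were 10.36 to 10.85 in null and 10.09 to 10.43 in wild-type libraries for endothelium (3 higher and 1 lower of 4), and 11.22 to 11.62 in null and 10.59 to 10.95 in wild-type libraries for basal epithelium (2 higher and 1 lower of 3). For smooth muscle they were 16.03 to 16.62 in null and 16.40 to 16.72 in wild-type libraries (4 of 5 lower). Of all tested genes, 34.1% were called higher and 31.8% lower in the library fit. No marker was at 0, and the part of these cell types in the results below was not tested. In bulk tissue, fewer cells of a type and less RNA per cell cannot be told apart.

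Prdx6 had the highest transcript level of the system in each genotype, and that level was far lower in the null. Of the 10 genes, limma in the library fit called 6 lower in the null (Prdx6, Txn1, Txnrd2, Prdx2, Txn2 and Prdx3) and 0 higher, where 31.8% of the 16197 tested genes were called lower and 34.1% higher. The libraries of the genotypes did not overlap for the same 6, while 44.2% of all tested genes had no overlap, 22.7% lower and 21.5% higher in the null. In the set-mean fit limma called 0 of the 10, against 4.09% of all genes (1.93% lower), and 6 of the 10 had an unadjusted p under 0.05, as did 31.1% of all genes. The 10 genes had a median difference of -0.62 and all tested genes one of 0.05. When libraries were scaled to their totals the median of all genes was 0.37 and that of the 10 genes -0.31, and the calls in the library fit were then 6 lower and 2 higher (Prdx4 and Txnrd1). Under that scaling 16.1% of all genes were called lower and 53.2% higher.

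The order of the levels was compared per kilobase of the longest coding transcript, after each log2 value was turned back to a linear one. In the null, Prdx6 led with 11913 ± 4080 per kb, followed by Prdx5 (2215), Prdx1 (1607), Prdx2 (1255), Prdx3 (1103), Txn1 (1022), Txn2 (836), Prdx4 (526), Txnrd1 (408) and Txnrd2 (152). In wild type, Prdx6 stood at 84110 ± 12720 per kb (SD, n = 6), ahead of Prdx5 (2522), Txn1 (2210), Prdx2 (2064), Prdx1 (2040), Prdx3 (1670), Txn2 (1288), Prdx4 (556), Txnrd1 (383) and Txnrd2 (246). Txn1 was thus the third of the 10 in wild type and the sixth in the null. Prdx1, Prdx2, Prdx3, Txn1 and Txn2 overlapped with their neighbours in the null order, as did Prdx5, Txn1, Prdx2, Prdx1 and Prdx3 in the wild-type order. Prdx6 stood above all the others in each genotype, and Prdx4, Txnrd1 and Txnrd2 were separate at the low end. Among 16038 tested genes with a transcript length, Prdx6 ranked 64 per kb in the null and 11 in wild type.

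As a share of the library total on the linear scale, Prdx6 took 0.112% to 0.231% in null libraries and 0.844% to 1.098% in wild-type libraries. The other 9 genes together took 0.0791% to 0.108% in null libraries and 0.0870% to 0.118% in wild-type libraries, ranges that overlapped. Prdx6 made up 49.8% to 61.1% of the per-kilobase signal of the 10 genes in the null and 86.2% to 87.1% in wild type. Seminal vesicle secretory genes took between 15.5% and 15.7% of the total in each of null libraries 1 to 3, and under that, between 0.715% and 0.727%, in each of null libraries 4 to 6.

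**Figure D1:**
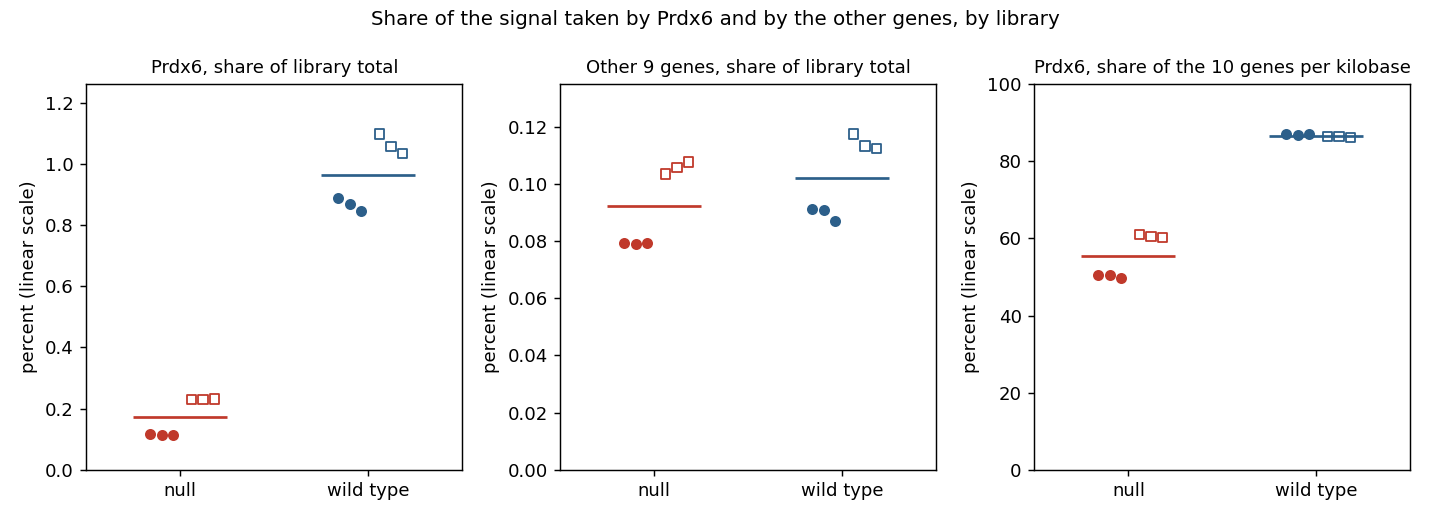
Percent of the library total taken by Prdx6 (left) and by the other 9 genes together (middle), and Prdx6 as a percent of the per-kilobase signal of the 10 genes (right), for 6 null and 6 wild-type libraries on the linear scale. Filled circles are libraries 1 to 3, open squares libraries 4 to 6 and lines genotype means; Prdx6 reaches 0.231% at most in the null and is at least 0.844% in wild type, while the other 9 genes overlap.

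Prdx6 (ENSMUSG00000026701, GRCm38 chromosome 1, 161240112 to 161251219, minus strand) ranged from 14.22 over a median of 14.73 to 15.19 in null libraries. It ranged from 17.37 over a median of 17.59 to 17.87 in wild-type libraries. Every null library lay below every wild-type library, and null libraries 1 to 3 (mean 14.25) lay below null libraries 4 to 6 (mean 15.19). The mean was 14.72 ± 0.51 in the null and 17.60 ± 0.22 in wild type (SD, n = 6), a difference of -2.88, or a level 7.36-fold higher in wild type. It ranked 66 of 16197 from the most negative difference. The limma adjusted p was 3.52e-07 in the library fit and 0.0672 in the set-mean fit (SE 0.67), so it did not meet the rule for having fallen. The 4 pairings of a null with a wild-type set gave -3.54 to -2.22. In the set-mean fit it was called with the filter on low values removed (limma adjusted p = 0.00457) or made stricter (limma adjusted p = 0.0485), without null libraries 1 to 3 (-2.41, limma adjusted p = 0.0229) and without null libraries 4 to 6 (-3.35, limma adjusted p = 0.000719). It was not called there without wild-type libraries 1 to 3 (-3.07, limma adjusted p = 0.174) or 4 to 6 (-2.69, limma adjusted p = 0.395). All genes were called at 6.07% and 19.8% in the fits without a null set, in that order, and at 1.34% and 0.037% in those without a wild-type set.

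Prdx6 has relatives with which it could share reads. The sources used here do not say how reads matching several places were counted. Prdx6b, annotated as protein coding, has a transcript that aligned to that of Prdx6 over 49.0% of its length with 89.7% identity, and the processed pseudogene Prdx6-ps2 aligned over 100% of its length with 82.0% identity. Prdx6b was at 8.998 to 10.04 in null and 12.14 to 12.28 in wild-type libraries, and Prdx6-ps2 at 7.66 to 8.59 in null and 10.52 to 10.71 in wild-type libraries. Each was below Prdx6 in every library and differed between the genotypes in the same direction, Prdx6b by -2.70 and Prdx6-ps2 by -2.54. The limma adjusted p in the set-mean fit was 0.0109 for Prdx6b and 0.0117 for Prdx6-ps2, both named after their values were seen, and each fell in the null by the rule above. Those calls were lost without wild-type libraries 1 to 3 (limma adjusted p = 0.0506 for Prdx6b and 0.0545 for Prdx6-ps2) and without wild-type libraries 4 to 6 (limma adjusted p = 0.101 for Prdx6b and 0.108 for Prdx6-ps2).

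**Figure D2:**
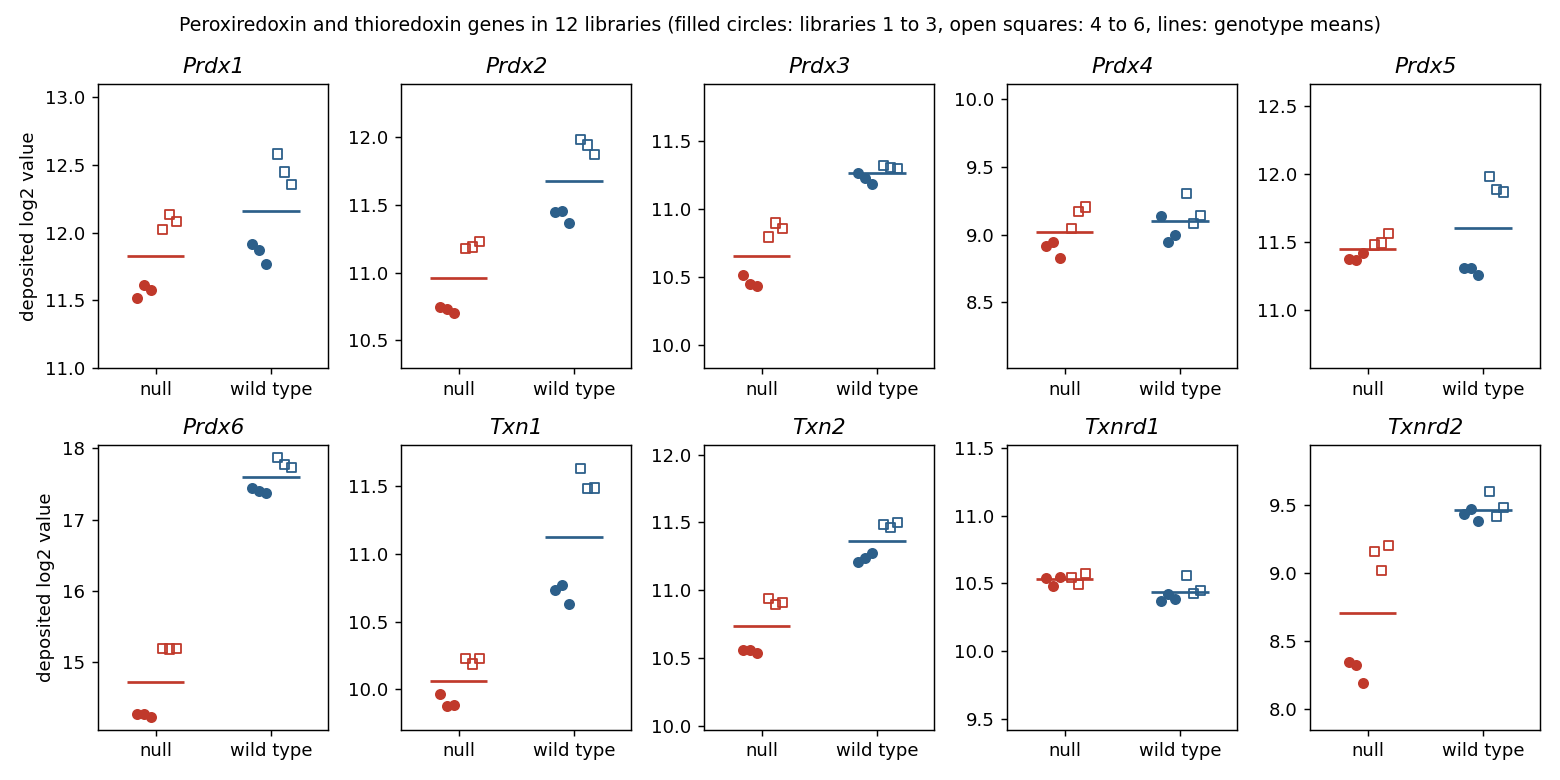
Deposited log2 value of each of the 10 genes in 6 null and 6 wild-type libraries, with filled circles for libraries 1 to 3, open squares for libraries 4 to 6 and lines for genotype means. The vertical span is the same in every panel except that of Prdx6, which is wider; the genotypes do not overlap for Prdx2, Prdx3, Prdx6, Txn1, Txn2 and Txnrd2.

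In the cytosolic branch, thioredoxin was lower in the null in the library fit, while its reductase was not called. Txn1 (GRCm38 chromosome 4, 57943373 to 57956411, minus strand), the main cytosolic thioredoxin, ranged from 9.88 over a median of 10.08 to 10.23 in null libraries. It ranged from 10.63 over a median of 11.13 to 11.63 in wild-type libraries. The genotypes did not overlap, though wild-type libraries 1 to 3 (mean 10.71) were well below wild-type libraries 4 to 6 (mean 11.53). The mean was 10.06 ± 0.17 in the null and 11.12 ± 0.46 in wild type (SD, n = 6), a difference of -1.06 (SE 0.30, limma adjusted p = 0.000206 in the library fit and 0.0936 in the set-mean fit). Without null libraries 4 to 6 it was -1.22 and called in the set-mean fit (limma adjusted p = 0.0254), and with any of the other 3 sets left out it was -1.47 to -0.65 and not called (limma adjusted p = 0.0698 to 0.399). Txn1 has a short transcript (1051 bases), and with the trend over transcript length removed from every library its difference was -0.68 (limma adjusted p = 0.000176 in the library fit).

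Txnrd1 (GRCm38 chromosome 10, 82833951 to 82897712, plus strand), the selenoprotein that reduces Txn1, ranged from 10.48 over a median of 10.54 to 10.57 in null libraries. It ranged from 10.37 over a median of 10.42 to 10.56 in wild-type libraries. These ranges overlapped, and Txnrd1 had the smallest spread of the 10 genes in the null (SD 0.04). The difference of 0.09 was not called (limma adjusted p = 0.0961 in the library fit and 0.727 in the set-mean fit). It was called higher with library totals (0.41), upper-quartile centring (0.17) and quantile normalization (0.22) and without wild-type library 4 (0.12, limma adjusted p = 0.0358) or wild-type libraries 4 to 6 (0.14, limma adjusted p = 0.0229), and was -0.02 with the length trend removed. Within a library, where a single scaling factor cancels, the value of Txn1 minus that of Txnrd1 was -0.67 to -0.31 in null and 0.24 to 1.07 in wild-type libraries. A trend over transcript length does not cancel there, since the transcripts have 1051 bases (Txn1) and 3622 bases (Txnrd1). With that trend removed the genotype difference was -0.68 for Txn1 and -0.02 for Txnrd1.

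Prdx2 (GRCm38 chromosome 8, 84969587 to 84974834, plus strand), a peroxiredoxin of the cytosol that is also abundant in red blood cells, ranged from 10.71 over a median of 10.96 to 11.23 in null libraries. It ranged from 11.37 over a median of 11.66 to 11.98 in wild-type libraries. The highest null library was below the lowest wild-type library by a narrow margin. The difference was -0.71 (SE 0.27, limma adjusted p = 0.000754 in the library fit and 0.138 in the set-mean fit), and in the set-mean fit it was called without null libraries 4 to 6 (-0.95, limma adjusted p = 0.0463). With any of the other 3 sets left out it was -0.97 to -0.46 and not called there (limma adjusted p = 0.132 to 0.537). Of 5 red blood cell markers, 1 was called higher and 0 lower in the library fit, and their summed level was 9.71 to 10.31 in null and 9.52 to 10.87 in wild-type libraries (log2), ranges that overlapped. Prdx2 lies across Junb and Rnaseh2a on the opposite strand, and the sources used here do not say whether counting used the strand. Junb averaged 9.84 in the null and 9.67 in wild type, and Rnaseh2a 8.25 in the null and 8.85 in wild type.

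Prdx1 (GRCm38 chromosome 4, 116685544 to 116700822, plus strand), the other main peroxiredoxin of the cytosol, ranged from 11.52 over a median of 11.82 to 12.13 in null libraries. It ranged from 11.77 over a median of 12.14 to 12.58 in wild-type libraries. It was set apart more by the sets than by the genotype, since libraries 4 to 6 exceeded libraries 1 to 3 by 0.51 in the null and by 0.61 in wild type. The genotype difference of -0.33 was not called (SE 0.30, limma adjusted p = 0.0892 in the library fit and 0.458 in the set-mean fit). It was called lower without wild-type library 3 (-0.41, limma adjusted p = 0.0426), without null libraries 4 to 6 (-0.59, limma adjusted p = 0.0129) and without wild-type libraries 1 to 3 (-0.64, limma adjusted p = 0.00460).

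The mitochondrial branch, which removes peroxide made by the respiratory chain, was lower in the null for its peroxiredoxin, thioredoxin and reductase in the library fit. Prdx3 (GRCm38 chromosome 19, 60864051 to 60874556, minus strand), the mitochondrial peroxiredoxin, ranged from 10.43 over a median of 10.65 to 10.90 in null libraries. It ranged from 11.19 over a median of 11.28 to 11.32 in wild-type libraries. Wild-type libraries were close together (SD 0.05) and all above the null. The difference was -0.61 (SE 0.21, limma adjusted p = 6.37e-05 in the library fit and 0.121 in the set-mean fit).

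Txn2 (GRCm38 chromosome 15, 77915047 to 77929006, minus strand), the mitochondrial thioredoxin, ranged from 10.54 over a median of 10.73 to 10.94 in null libraries. It ranged from 11.21 over a median of 11.37 to 11.50 in wild-type libraries. It followed Prdx3 closely in size, with a difference of -0.63 (SE 0.22, limma adjusted p = 8.64e-05 in the library fit and 0.122 in the set-mean fit). Txnrd2 (GRCm38 chromosome 16, 18426384 to 18479073, plus strand), the mitochondrial thioredoxin reductase, ranged from 8.19 over a median of 8.68 to 9.20 in null libraries. It ranged from 9.38 over a median of 9.45 to 9.60 in wild-type libraries. The genotypes did not overlap, yet null libraries 4 to 6 (mean 9.13) came near wild type and null libraries 1 to 3 (mean 8.28) did not. The difference was -0.76 (SE 0.31, limma adjusted p = 0.00204 in the library fit and 0.154 in the set-mean fit), and without null libraries 4 to 6 it was -1.18 and called in the set-mean fit (limma adjusted p = 0.0178). With any of the other 3 sets left out it was -0.80 to -0.34 and not called there (limma adjusted p = 0.254 to 0.570). The value of -0.34, without null libraries 1 to 3, was called in the library fit (limma adjusted p = 0.00257).

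Prdx5 and Prdx4 did not separate the genotypes. Prdx5 (GRCm38 chromosome 19, 6906697 to 6910106, minus strand), found in mitochondria, peroxisomes and cytosol, ranged from 11.36 over a median of 11.45 to 11.56 in null libraries. It ranged from 11.25 over a median of 11.59 to 11.98 in wild-type libraries. All null libraries lay between wild-type libraries 1 to 3 and wild-type libraries 4 to 6, and the difference of -0.15 was not called (SE 0.26, limma adjusted p = 0.312 in the library fit). Without wild-type libraries 1 to 3 it was -0.47 and without wild-type libraries 4 to 6 it was 0.16, each called over the remaining libraries (limma adjusted p = 9.87e-05 without the first and 0.0411 without the second), and it was 0.16 with library totals, 0.08 with quantile normalization and 0.18 with the length trend removed. Trmt112, on the opposite strand across Prdx5, averaged 5.42 in the null and 6.03 in wild type. Prdx4 (GRCm38 chromosome X, 155323918 to 155340754, minus strand), which uses peroxide to form disulfide bonds in the endoplasmic reticulum, ranged from 8.83 over a median of 8.996 to 9.20 in null libraries. It ranged from 8.95 over a median of 9.11 to 9.30 in wild-type libraries. Its difference of -0.08 was not called (SE 0.21, limma adjusted p = 0.401 in the library fit). The sign was the other way, and called in the library fit, with library totals (0.23, limma adjusted p = 0.0298) and with the length trend removed (0.31, limma adjusted p = 0.000722), and it was 0.04 without null libraries 1 to 3 and -0.20 without null libraries 4 to 6 (limma adjusted p = 0.0483).

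**Figure D3:**
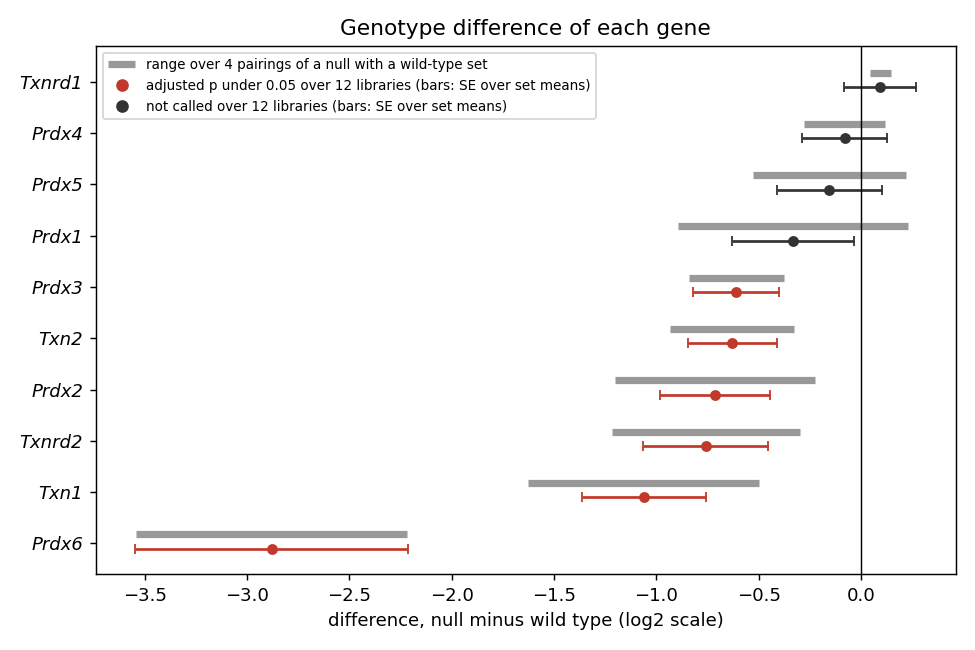
Difference of each gene, null minus wild type on the log2 scale, from Txnrd1 (0.09) at the top to Prdx6 (-2.88) at the bottom. Points are estimates with the SE of the limma fit over the 4 set means, red where the gene was called in the library fit, and grey bars span the 4 pairings of a null with a wild-type set, which cross 0 for Prdx1, Prdx4 and Prdx5 only.

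Genes for proteins that repair, bind or regulate the system differed in both directions. Of 9 such genes, 3 were called higher and 5 lower in the library fit, with a median difference of -0.27, and 0 were called in the set-mean fit (4 at an unadjusted p under 0.05). The shares of all tested genes, for these counts and those of later lists, were 34.1% higher and 31.8% lower in the library fit. In the set-mean fit they were 4.09% called and 31.1% at an unadjusted p under 0.05. Srxn1, encoding the sulfiredoxin that rescues over-oxidised peroxiredoxins, ranged from 9.06 over a median of 9.29 to 9.38 in null libraries. It ranged from 8.47 over a median of 8.58 to 8.65 in wild-type libraries. Every null library was above every wild-type library, a difference of 0.69 (SE 0.20, limma adjusted p = 1.91e-06 in the library fit and 0.0951 in the set-mean fit). Sesn1, a sestrin gene, was higher by 0.57 without overlap (limma adjusted p = 6.13e-06 in the library fit and 0.116 in the set-mean fit), Sesn2 had a difference of -0.27 (limma adjusted p = 0.00203 in the library fit) that was 0.04 with library totals and not called with the set as a random block (limma adjusted p = 0.292), and Sesn3 one of 0.07 (limma adjusted p = 0.438) that was -0.52 with the length trend removed. Srxn1 and Sesn1 were called in the set-mean fit with library totals (limma adjusted p = 0.0341 for Srxn1 and 0.0443 for Sesn1).

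Txnip, whose product binds and inhibits thioredoxin, had a mean of 13.72 ± 0.33 in the null and 13.34 ± 0.19 in wild type (SD, n = 6), and the groups overlapped. Its difference of 0.37 had a limma adjusted p of 0.0374 in the library fit, which was 0.0719 to 0.0806 without any of null libraries 4, 5 and 6 or wild-type libraries 1, 2 and 3. It was 0.07 without null libraries 4 to 6 and 0.21 without wild-type libraries 1 to 3, not called in either, nor was it called with the set as a random block (limma adjusted p = 0.0886) or without the filter on low values (limma adjusted p = 0.0515). Txnl1, a thioredoxin-like protein of the proteasome, had a difference of -0.91 (SE 0.20, limma adjusted p = 5.67e-07 in the library fit and 0.0593 in the set-mean fit), and was called in the set-mean fit with the length trend removed (limma adjusted p = 0.0385), with a stricter filter (limma adjusted p = 0.0493) and without null libraries 4 to 6 (limma adjusted p = 0.0219). Txndc17, a thioredoxin-domain protein of the cytosol, had a difference of -0.95 (limma adjusted p = 0.000329 in the library fit and 0.103 in the set-mean fit, and 0.0259 there without null libraries 4 to 6). Glrx3 (-0.49, limma adjusted p = 0.0167 in the library fit) and Txnrd3, the third thioredoxin reductase gene (-0.47, limma adjusted p = 0.000379), were not called with library totals or with the set as a random block, nor was Glrx3 without null libraries 1 to 3 (-0.19) or wild-type libraries 4 to 6 (-0.26).

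Transcription of Txnrd1, Srxn1 and Prdx1 is known to be raised by NRF2, a factor that binds antioxidant response elements. The promoters of the 10 genes except Prdx6, and that of Srxn1, were therefore searched for the core of that element. The core was written as TGACNNNGC and looked for on both strands of windows running from 250 bases before to 50 bases after a transcript start (RefSeq, GRCm38.p6). It occurred in 12.4% of 32851 windows of 300 bases. Of the 10 genes, 9 had a window, 11 windows in all. Prdx6 had none and was not searched. The core was in 2 of the windows, that of Prdx1 and 1 of 3 windows of Txnrd1. Srxn1 also had a match. The sequences of the genes with a match are shown, and capitals mark the match, which reads as the reverse complement in each.
Prdx1: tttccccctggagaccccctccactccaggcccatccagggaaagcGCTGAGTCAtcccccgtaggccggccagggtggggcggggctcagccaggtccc
Txnrd1: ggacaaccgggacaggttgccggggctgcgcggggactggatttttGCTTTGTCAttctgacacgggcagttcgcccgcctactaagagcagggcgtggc
Srxn1: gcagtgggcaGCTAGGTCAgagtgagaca
The Prdx1 stretch is at chr4:116685420-116685519 on the plus strand, with the match at -133 to -125 from the start. The Txnrd1 stretch is at chr10:82859068-82859167 on the plus strand, with the match at -92 to -84. The Srxn1 stretch is at chr2:152105542-152105570 on the plus strand, and its match lies past the start, at 29 to 37. A match describes letters in these windows and not a bound site.

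Genes of NRF2 and its targets were called in both directions, as were all tested genes (34.1% higher and 31.8% lower in the library fit). Of 15 tested, 6 were called higher and 8 lower in the library fit, with a median of -0.30, and 0 were called in the set-mean fit (8 at an unadjusted p under 0.05). Keap1, the inhibitor of NRF2, had a mean of 9.88 ± 0.07 in the null and 10.33 ± 0.07 in wild type (SD, n = 6), a difference of -0.45 (limma adjusted p = 1.07e-05 in the library fit and 0.148 in the set-mean fit). With library totals it was -0.14 and not called (limma adjusted p = 0.0753). Nfe2l2, which encodes NRF2, had a difference of 0.59, and Gclc, the catalytic subunit of glutathione synthesis, one of 0.68, both without overlap and both called in the library fit (limma adjusted p = 0.000166 for Nfe2l2 and 9.34e-05 for Gclc). Gclm, the modifier subunit, was at 0.36 (limma adjusted p = 0.000358) and at -0.01 with the length trend removed. Nfe2l2, Gclc and Gclm were named after their values were seen. Osgin1 (-0.87), the ferritin light chain gene Ftl1 (-0.71) and Cbr1 (-0.83), a carbonyl reductase, were lower without overlap (limma adjusted p = 2.89e-07 to 2.17e-05 in the library fit and 0.0601 to 0.0988 in the set-mean fit).

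Among enzymes that draw electrons from thioredoxin, methionine sulfoxide reductases accounted for the larger differences. Of 7 tested, 2 were called higher and 3 lower in the library fit, with 0 called in the set-mean fit (4 at an unadjusted p under 0.05), with a median of -0.11. Msra, which repairs one form of oxidised methionine, had a mean of 8.63 ± 0.14 in the null and 9.59 ± 0.11 in wild type (SD, n = 6), a difference of -0.96. The selenoprotein gene Msrb1 differed by -1.02 and the mitochondrial Msrb2 by -0.94, whereas Msrb3 differed by 0.82, each without overlap. Their limma adjusted p was 4.43e-07 to 1.91e-05 in the library fit and 0.0546 to 0.0874 in the set-mean fit. In the set-mean fit Msra was called with the stricter filter (limma adjusted p = 0.0447), Msrb3 with library totals (limma adjusted p = 0.0297), and Msrb1, Msrb2 and Msrb3 without null libraries 4 to 6 (limma adjusted p = 0.0236 to 0.0448).

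The parallel glutaredoxin route, which works with glutathione in place of thioredoxin, had 1 of 4 genes called higher and 1 lower in the library fit, with 0 called in the set-mean fit (1 at an unadjusted p under 0.05), with a median of 0.12. Glrx5, the mitochondrial glutaredoxin of iron-sulfur cluster assembly, had a difference of -1.04 (SE 0.28, limma adjusted p = 0.000103 in the library fit, 0.0873 in the set-mean fit, and 0.0186 there without null libraries 4 to 6). Glrx, the cytosolic glutaredoxin, averaged 8.59 in null libraries 1 to 3 and 7.39 in null libraries 4 to 6, against 7.35 in wild-type libraries 1 to 3 and 7.06 in wild-type libraries 4 to 6. Its difference of 0.78 was called in the library fit (limma adjusted p = 0.0159) and was not called without null libraries 1 to 3 (0.18, limma adjusted p = 0.258) or wild-type libraries 4 to 6 (0.64, limma adjusted p = 0.141). It was not called with the set as a random block (limma adjusted p = 0.0818) or with quantile normalization (0.60, limma adjusted p = 0.0531) either. Gsr, glutathione reductase, differed by 0.39 (limma adjusted p = 0.0620), was called without any of null libraries 1, 2 and 3 (limma adjusted p = 0.0277 to 0.0301) and was -0.04 without null libraries 4 to 6. It was also called with library totals (0.71, limma adjusted p = 0.00502), without null libraries 1 to 3 (0.82, limma adjusted p = 2.74e-06), and with upper-quartile centring, quantile normalization or the length trend removed (0.42 to 0.49, limma adjusted p = 0.0249 to 0.0416). Glrx2, at -0.16 (limma adjusted p = 0.101), was called without null library 5 (limma adjusted p = 0.0486) and was 0.16 with library totals.

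For NADPH supply, which feeds thioredoxin reductase, 1 of 8 genes was called higher and 3 lower in the library fit, with 0 called in the set-mean fit (1 at an unadjusted p under 0.05), with a median of -0.20. Nnt, the mitochondrial transhydrogenase that makes NADPH, differed by 0.56, while Me1 (malic enzyme) differed by -0.76, and the isocitrate dehydrogenase genes Idh1 and Idh2 by -0.49 each (limma adjusted p = 0.000612 to 0.00398 in the library fit for the 4 genes). Nnt averaged 10.02 in null libraries 1 to 3 and 10.57 in null libraries 4 to 6. Its wild-type means were 9.70 in libraries 1 to 3 and 9.76 in libraries 4 to 6 (limma adjusted p = 0.165 in the set-mean fit). With library totals Idh1 and Idh2 were each at -0.17 and not called (limma adjusted p = 0.0895 for Idh1 and 0.201 for Idh2), and Idh2 was not called with the length trend removed (-0.28, limma adjusted p = 0.128). In the machinery that inserts selenocysteine into thioredoxin reductases, 1 of 7 genes was called higher and 4 lower in the library fit, with 0 called in the set-mean fit (1 at an unadjusted p under 0.05), with a median of -0.21. Trnau1ap, which binds the selenocysteine tRNA, differed by -0.85 without overlap (limma adjusted p = 5.01e-05 in the library fit and 0.0923 in the set-mean fit), Eefsec, the elongation factor for selenocysteine, by -0.51, Pstk by -0.36 and Sephs1 by 0.19. The call was lost for Eefsec without null libraries 1 to 3 (limma adjusted p = 0.0549), for Pstk without wild-type libraries 4 to 6 (limma adjusted p = 0.0616), and for Sephs1 without null libraries 1 to 3 (limma adjusted p = 0.112) or wild-type libraries 1 to 3 (limma adjusted p = 0.0669). With the set as a random block none of these 3 was called (limma adjusted p = 0.0942 for Eefsec, 0.221 for Pstk and 0.328 for Sephs1). Eefsec (-0.20, limma adjusted p = 0.156) and Pstk (-0.04, limma adjusted p = 0.674) were not called with library totals. With the length trend removed Pstk was 0.0047 and Sephs1 -0.16, and Sephs1 was not called without the filter on low values (limma adjusted p = 0.0547).

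Of 15 thioredoxin-domain genes of the endoplasmic reticulum and their oxidases, 2 were called higher and 5 lower in the library fit and 1 was higher in the set-mean fit (2.15% of all genes), with a median of 0.10. Txndc16 ranged from 9.49 over a median of 9.58 to 9.64 in null libraries. It ranged from 8.29 over a median of 8.42 to 8.53 in wild-type libraries. It rose by 1.16 (SE 0.19, limma adjusted p = 5.23e-09 in the library fit and 0.0324 in the set-mean fit), a call in the set-mean fit that was lost without wild-type libraries 1 to 3 (limma adjusted p = 0.0778) or 4 to 6 (limma adjusted p = 0.195). P4hb, protein disulfide isomerase and a partner of Prdx4, had a mean of 14.87 ± 0.22 in the null and 15.59 ± 0.10 in wild type (SD, n = 6), a difference of -0.72 (limma adjusted p = 0.000206 in the library fit and 0.303 in the set-mean fit). Txndc5 (-0.43) and Txndc11 (-0.42) were lower without overlap (limma adjusted p = 0.000166 for Txndc5 and 2.17e-05 for Txndc11 in the library fit). Neither was called with library totals (-0.11 for each, limma adjusted p = 0.267 for Txndc5 and 0.139 for Txndc11), nor Txndc5 with quantile normalization (-0.13, limma adjusted p = 0.122). Over the 65 genes of all these lists, 16 were called higher and 29 lower in the library fit, and 26 higher and 15 lower with library totals. The balance of all tested genes turned in the same way, with 5518 higher and 5152 lower as deposited and 8611 higher and 2608 lower with library totals. In the set-mean fit 20 of the 65 had an unadjusted p under 0.05 (30.8%, against 31.1% of all genes).

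**Figure D4:**
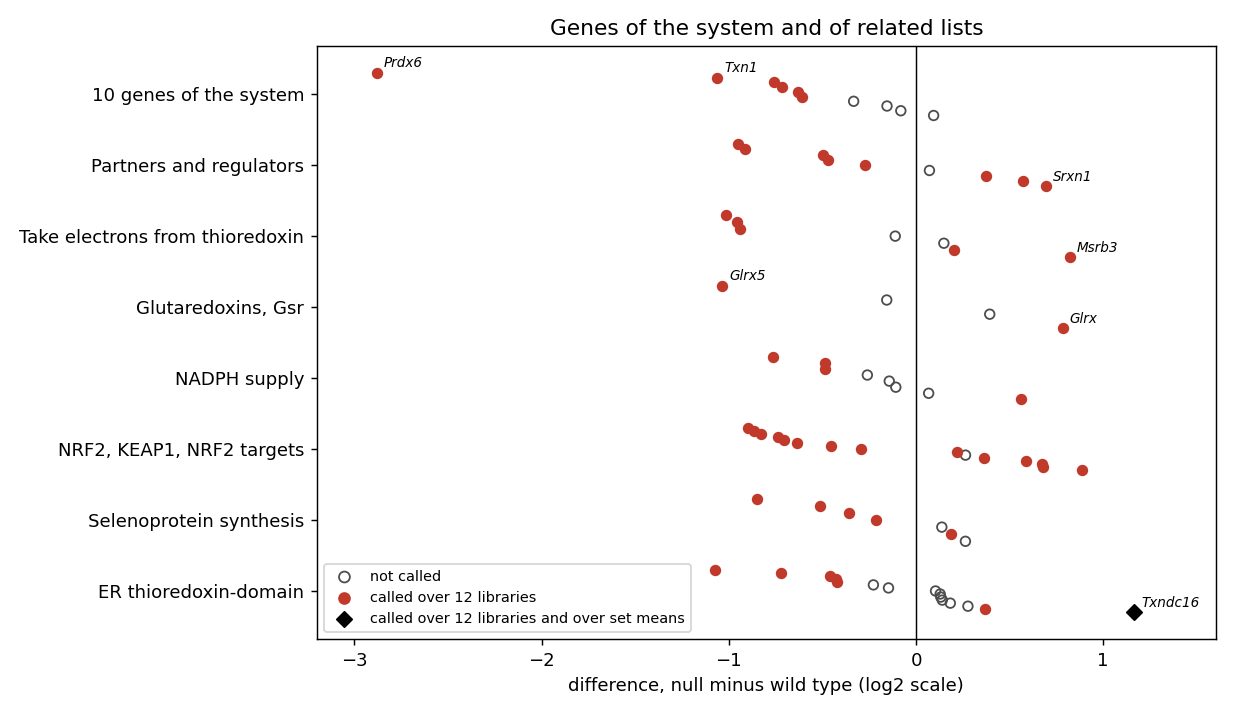
Difference of each gene, null minus wild type on the log2 scale, for the 10 genes of the system (top row) and for 7 lists of related genes. Open circles were not called, red points were called by limma in the library fit, and the black diamond (Txndc16, 1.16) was called in the set-mean fit too; Prdx6 stands alone at -2.88, and the related lists span both directions.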

How the data were processed

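Per the labels' protocols, poly-A RNA of the 12 prostate samples went through TruSeq library preparation and was sequenced on a HiSeq2000. Tools listed in the submitters' processing notes are DESeq, Cufflinks, TopHat and CASAVA 1.8.2, and 2 builds appear there, GRCm38.p2 and mm9, all without roles. The deposited table holds log2 values that the authors normalized between libraries. No counts were given, so the tests used limma 3.58.1 (trend) in R 4.3.3 on the log2 values as deposited, with no further logarithm or pseudocount. Differences of low genes may be understated on such a scale, which was not tested.

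A gene was tested where 6 or more libraries had a value of 4 or higher (16197 of 39179), and p-values (two-sided) were adjusted by Benjamini-Hochberg over all of them. The sets of 3 libraries were found by clustering within genotype, and the means of the sets entered a second limma fit. SEs are the moderated ones of that fit. For depth, a factor per library was sought that turned values between 2300 and 5800 (2 to the power of the value) into whole numbers within 0.1, after an offset. This held for 100% of them and for 96.6% to 99.3% of higher values up to 65536. Totals are estimates from that factor, and no counts were rebuilt.

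Symbols, positions and transcript lengths came from GENCODE annotation of GRCm38, which matched 37607 identifiers (96.0%). Transcripts were aligned with Biopython 1.88 under Python 3.11.15. The members and lists were chosen with earlier results of these data known. Named genes were the 10 members, all partners and regulators, and up to 4 genes of each other list that had the lowest p in the limma fit to the 12 libraries. The fits were tested on simulated data with independent libraries and no difference between sets. That test therefore cannot show how either fit handles the sets of these data. Alternatives were other scalings, filters, a damped scale, other variance models, a stricter threshold, removal of the length trend and leaving out libraries or sets. Fits over set means that left out a set, and a prior without a trend, were added after the data were seen. The targeted gene is not reported here.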

Additional observations from a re-analysis of the deposited data

How the results depend on the processing

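No paired analysis was possible because the labels give the libraries of the genotypes no shared numbers. Over the 12 libraries, 6 of the 10 genes were called in the analysis as reported and 6 to 7 when any library was left out, and 45 of the 65 related genes, with 43 to 46 when any library was left out. Over the set means 0 of the 10 genes were called. That count was 1 without the filter on low values, 1 with the stricter filter, 1 with a prior without a trend, 1 without null libraries 1 to 3 and 4 without null libraries 4 to 6. All tested genes were called at 4.09% as reported, and at 1.84%, 6.48%, 2.47%, 6.07% and 19.8% in the 5 alternatives in that order. Of the related genes 1 was called over the set means, and 7 with library totals, 2 with the length trend removed, 3 with the stricter filter, 15 without null libraries 4 to 6, and 0 without wild-type libraries 1 to 3, without wild-type libraries 4 to 6, at an adjusted p of 0.01 or with a prior without a trend. Of all tested genes, 12% were called over the set means with library totals, 5.26% with the length trend removed and 0.556% at an adjusted p of 0.01. The estimation of array weights stopped before full convergence. Fits that left out a set assume that the lone set varies like the others.

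Signs turned for these genes, with the same values in both fits. With library totals Prdx4 was 0.23, Prdx5 0.16, Sesn2 0.0443 and Glrx2 0.16. With quantile normalization Prdx5 was 0.0847. With the length trend removed Prdx4 was 0.31, Prdx5 0.18, Txnrd1 -0.0211, Sesn3 -0.52, Pstk 0.0047, Sephs1 -0.16 and Gclm -0.0125. Without null libraries 1 to 3 Prdx4 was 0.042 and Sesn3 -0.0443, without null libraries 4 to 6 Gsr was -0.0354, and without wild-type libraries 4 to 6 Prdx5 was 0.16. The cause was not tested. Prdx2, Prdx3, Prdx6, Txn1, Txn2 and Txnrd2 were lower and called over the 12 libraries under every alternative run. For Txnrd2 the margin was narrow, with a limma adjusted p of up to 0.0484 among the scalings. Except for the set as a random block, these alternatives took the libraries of a set as independent. On depth, Txnrd2, the lowest of the 10 per kilobase, had an estimated 329 to 724 reads per library.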

Other observations

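Prdx6 missed the threshold over the set means while its relatives Prdx6b and Prdx6-ps2, with smaller differences, passed it. The SE of Prdx6 from its own 4 set means was 0.505, and the limma fit, whose prior follows the mean level of genes, gave 0.667. With a prior that does not follow the mean level, an alternative chosen after the data were seen, Prdx6 had a limma adjusted p of 0.0315 over the set means at the same difference of -2.88. The opposite held for Txn1, with an SE of 0.438 from its own set means and 0.303 from the fit, and a limma adjusted p of 0.136 with that prior against 0.0936 as reported. Txndc16 lost its call over the set means with that prior (limma adjusted p = 0.0625).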
